A study of Rattus norvegicus with 90 samples.

Results

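The lowest of 3 doses of human umbilical cord-derived mesenchymal stromal cells (HuMSC) given through the nose was followed in the microglia of young rats. All animals were male Wistar Han rats, from litters culled to 12 pups. Injured animals received recombinant mouse IL-1β into the abdomen at 20 µg/kg, 2 times a day from postnatal day (P) 1 to P4 and 1 time on P5, while controls received PBS on the same days. At P10 the HuMSC20 group (IL-1β) was given 20 M cells per kg intranasally, the HuMSC50 and HuMSC125 groups (IL-1β) 50 and 125 M cells per kg, and the injured group (IL-1β) and the control group (PBS) a sham. Brains were taken 48 h later, at P12. The 3 HuMSC20 and the 3 injured libraries were picked by their labels and are 6 of the 90 libraries of the series. Control, HuMSC50 and HuMSC125 added 3 libraries each from the same sequencing run, run 412. The intravenous P12 groups come from another run, run 413. All genes were examined.

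Microglia are the resident macrophages of the brain. They survey the tissue, clear debris and supply factors to the cells that make myelin. Early systemic IL-1β is used as a model of inflammation around preterm birth in which male pups go on to make too little myelin. Mesenchymal stromal cells are studied in such settings for the factors they secrete. Immediate early genes such as Fosl2, Egr3 and Atf3 encode transcription factors that are induced within minutes of a stimulus, and the enzymatic dissociation of a brain is known to be one such stimulus.

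The animals were perfused, and the brain without cerebellum and olfactory bulbs was dissociated and passed over beads against CD11b/c, which bind microglia and also other myeloid cells. Polyadenylated RNA (100 ng of total RNA) was read as 75 bp single reads from strand-specific libraries. The 15 libraries of the run held 11.4 to 15.9 M counts (HuMSC20 11.9 to 13.7 M, injured 12.97 to 15.9 M), and 2.81 to 7.54% of counts came from mitochondrially encoded genes. The labels do not say whether the replicates were separate animals or pools, so p-values measure only the spread between these libraries. All microglia markers of a list of 15 (P2ry12, Tmem119, Cx3cr1 and others) were above 0 in the HuMSC20 and injured groups, and their summed level was 22885 to 27626 CPM with HuMSC20 and 25207 to 28190 CPM in injured libraries. CPM stands for counts per 1 M counts of the scaled library size. Markers of other cells were also present at lower summed levels, among them endothelial cells (1485 to 2548 CPM over these 6 libraries) and oligodendrocytes (588 to 802 CPM). In such bulk samples, fewer cells of a type and less RNA per cell cannot be told apart. HuMSC125 replicate 2 stood apart, with 859 CPM over 22 neuron markers against 41.6 to 86.7 CPM in the other 14 libraries.

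HuMSC20 was first compared with the injured group, which asks what the low dose changed on top of IL-1β. Over 13868 genes tested, edgeR's quasi-likelihood test passed 1 gene at an adjusted p under 0.05 (0.00721% of genes; 0 higher, 1 lower). At an unadjusted p under 0.05 there were 1387 genes, 664 higher (4.79%) and 723 lower (5.21%). The median log2 fold change over all genes was -0.0032.

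The gene that fell was Atp1b1, which encodes the β1 subunit of the sodium and potassium pump. Injured libraries held 548, 667 and 544 CPM and HuMSC20 libraries 358, 369 and 350 CPM. Every HuMSC20 library was below every injured one and close to the control libraries, at 347, 302 and 349 CPM. Atp1b1 fell by 0.71 ± 0.10 on the log2 scale (SE, n = 3 against 3, edgeR adjusted p = 0.0396). It had risen by 0.82 ± 0.10 in injured against control libraries (edgeR adjusted p = 0.00136), a comparison that uses the same injured libraries, and HuMSC20 was 0.11 ± 0.10 from control (edgeR adjusted p = 0.737). The call depended on each of the 6 libraries, since edgeR's adjusted p was 0.0668 to 0.224 when any one of HuMSC20 replicates 1 to 3 or injured replicates 1 to 3 was left out. It was 0.397 when only the 6 libraries were fitted, and the range over 13 other settings was 3.66e-08 to 0.397. Leaving out HuMSC20 replicate 2 gave 3 calls and HuMSC20 replicate 3 gave 1, Atp1b1 not among them, and without any other of the 6 libraries there was none. DESeq2 called 67 genes.

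**Figure D1:**
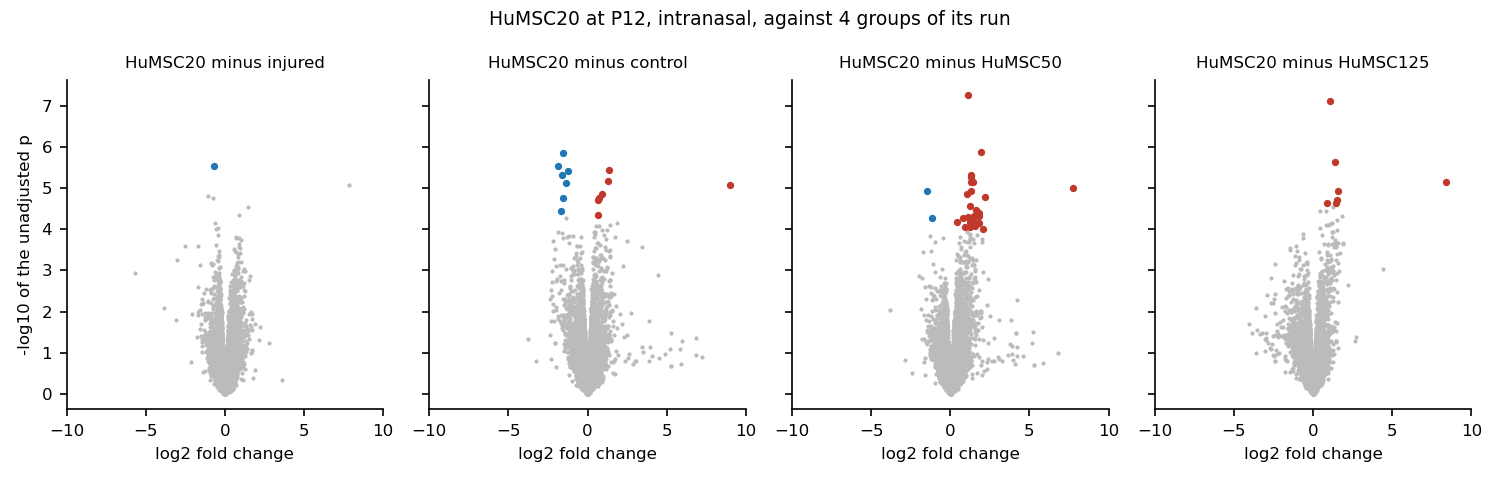
Each point is 1 of 13868 genes, with the log2 fold change on the x axis and the negative log10 of edgeR's unadjusted p on the y axis, for HuMSC20 against injured, control, HuMSC50 and HuMSC125. Red points passed the adjusted threshold higher in HuMSC20 and blue points lower: 0 and 1 against injured, 7 and 7 against control, 27 and 2 against HuMSC50, 7 and 0 against HuMSC125. The red point far to the right in 3 panels is Adamts13.

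The 9 genes with the next smallest p and lower values with HuMSC20 did not pass, and all were lower in every HuMSC20 library than in any injured one, which is how they were picked. Of all genes tested, 15.0% had groups that did not overlap in this comparison. Tlr5, the receptor for bacterial flagellin, was at 11.7, 11.5 and 9.49 CPM in injured and at 4.46, 6.28 and 4.76 CPM in HuMSC20 libraries. The log2 difference was -1.08 ± 0.17 (edgeR adjusted p = 0.0592). Control libraries lay at 4.35 to 4.90 CPM and overlapped HuMSC20. When HuMSC20 replicate 2 was left out, Tlr5 passed (edgeR adjusted p = 0.0463).

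Csf1, which encodes a growth factor for microglia, was at 85.7, 80.5 and 98.2 CPM in injured and at 60.5, 60.6 and 62.2 CPM in HuMSC20 libraries (log2 difference -0.53 ± 0.11, edgeR adjusted p = 0.194). HuMSC20 libraries were thus below injured libraries and above the control libraries, which held 36.5 to 39.0 CPM. Others were Erbb3 (a receptor of the neuregulin family, -0.65), Myo1e (a class I myosin, -0.43), Cytip (-0.56), Snn (-0.45), Rgl1 (-0.39) and Arhgap17 (-0.38). Their edgeR adjusted p ran from 0.142 for Erbb3 to 0.217 for Arhgap17.

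On the higher side the smallest p belonged to Ngfr, the p75 neurotrophin receptor, at 3.01, 2.71 and 4.53 CPM in injured and 12.0, 8.57 and 7.63 CPM in HuMSC20 libraries. The log2 difference was 1.45 ± 0.25 (edgeR adjusted p = 0.0797, and 0.0341 without the filter on low counts). Control libraries, at 6.06 to 8.69 CPM, overlapped the HuMSC20 range. Tagln and Myl9 encode proteins of the contractile apparatus of smooth muscle. Tagln was at 49.4, 50.6 and 66.5 CPM in injured and 105, 75.6 and 95.5 CPM in HuMSC20 libraries (0.73 ± 0.15, edgeR adjusted p = 0.178). Myl9 was at 54.3, 52.0 and 75.3 against 130, 96.1 and 108 CPM (0.88 ± 0.18, edgeR adjusted p = 0.194). Others were Trib2 (0.70), Apln (the peptide apelin, 0.90), Efhd1 (1.04), Slc13a3 (a dicarboxylate transporter, 0.90), Hapln1 (a link protein of the extracellular matrix, 0.97) and Ndrg2 (0.60), all with an edgeR adjusted p of 0.178 to 0.201. Apln passed when HuMSC20 replicate 2 was left out (edgeR adjusted p = 0.036). DESeq2 passed each gene named here on the lower and the higher side.

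**Figure D2:**
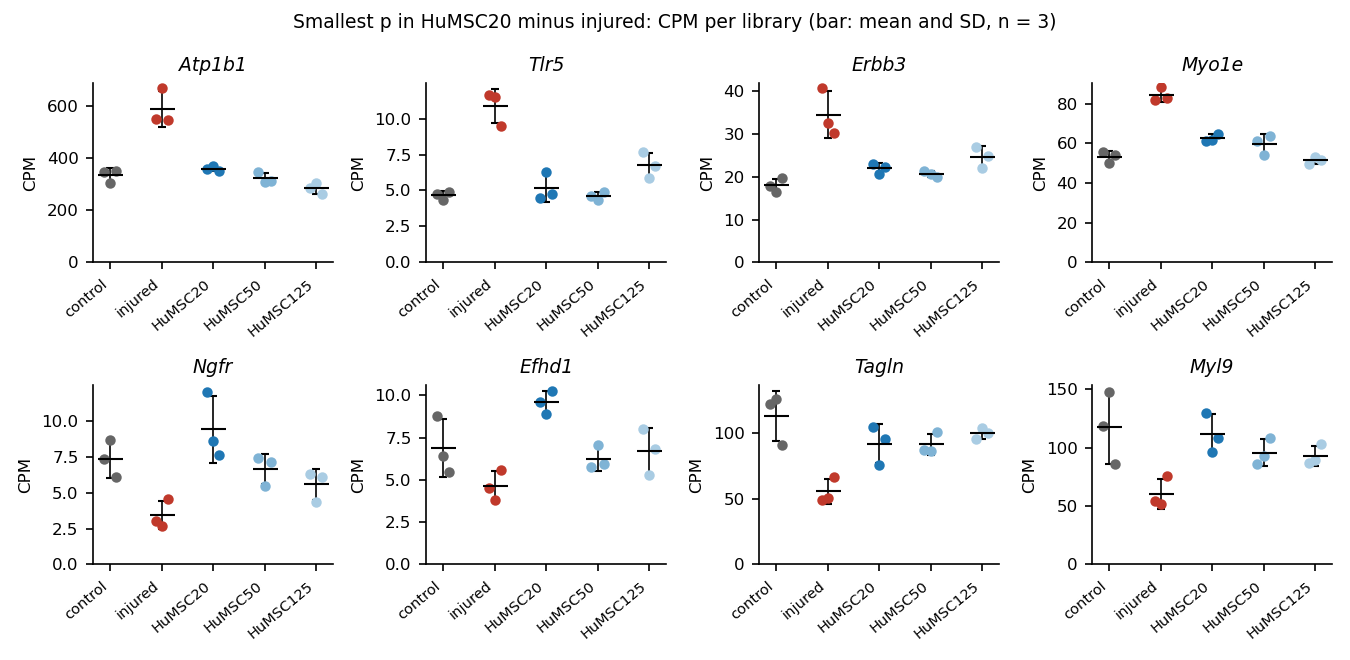
CPM of 8 genes on the y axis in the 15 libraries of the run, by group on the x axis, with each point 1 library and the bar the mean with its SD (n = 3). In the top row injured libraries are the high group (Atp1b1 544 to 667 CPM against 350 to 369 with HuMSC20), and in the bottom row they are the low group (Tagln 49.4 to 66.5 CPM against 75.6 to 105).

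Markers of vessel walls and connective tissue lay on the higher side, and edgeR passed none over all genes, while DESeq2 passed 4 mural and 1 fibroblast marker, all higher. Of 13 mural cell markers tested (pericytes and smooth muscle), all had a log2 fold change above 0, with a median of 0.61. An unadjusted p under 0.05 was found for 11 of them (4.79% of all genes were higher at that level). Acta2, smooth muscle actin, was at 65.1, 71.7 and 113 CPM in injured and 182, 115 and 145 CPM in HuMSC20 libraries, and did not pass (0.82 ± 0.20, edgeR adjusted p = 0.252). The pericyte marker Rgs5 was at 93.1, 78.9 and 105 against 147, 127 and 146 CPM. Neither gene's groups overlapped. The summed level of the mural list was 418 to 632 CPM in injured, 686 to 881 CPM in HuMSC20 and 680 to 1016 CPM in control libraries.

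Fibroblast markers were alike in this respect. All 11 tested were above 0 and 9 had an unadjusted p under 0.05 (4.79% of all genes were higher at that level), with a median of 0.71. Lum, the matrix proteoglycan lumican, was at 9.88, 7.91 and 13.4 CPM in injured and 20.9, 16.8 and 14.2 CPM in HuMSC20 libraries (0.73 ± 0.22, edgeR adjusted p = 0.314). The summed fibroblast level was 473 to 825 CPM in injured and 776 to 1182 CPM in HuMSC20 libraries, so the groups overlapped. Of 11 endothelial markers, all were above 0 and 5 had an unadjusted p under 0.05 (median 0.31), with the blood-brain barrier transporter Slco1a4 at 22.9, 19.0 and 25.3 against 34.6, 30.5 and 33.7 CPM.

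Astrocyte markers had 13 of 14 above 0, with a median of 0.51. Of the 14, edgeR passed none and DESeq2 passed 5. At an unadjusted p under 0.05, 8 were higher and 1 was lower (4.79% and 5.21% of all genes). Aqp4, the water channel of astrocyte endfeet, was at 112, 80.2 and 87.4 CPM in injured and 125, 145 and 161 CPM in HuMSC20 libraries (0.62 ± 0.14, edgeR adjusted p = 0.201). Gfap, the astrocyte intermediate filament, was at 70.7, 37.7 and 65.1 against 101, 103 and 100 CPM (0.81 ± 0.22, edgeR adjusted p = 0.252). Both genes were separate between the groups, while the summed level of the 14 markers was 1104 to 1215 CPM in injured and 1094 to 1288 CPM in HuMSC20 libraries. Neuron markers had 0 of 16 with an unadjusted p under 0.05, at a median of 0.38. Whether a different content of these cells contributes to the values of Tagln, Myl9, Ndrg2 and the other genes above was not tested.

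Genes of reactive microglia lay mostly on the lower side, with 23 of 31 below 0. Of 31 disease-associated and axon tract microglia genes, edgeR passed none and DESeq2 passed 2, both lower. In edgeR 12 had an unadjusted p under 0.05 on the lower side and 1 on the higher (5.21% and 4.79% of all genes), and the median was -0.28. Clec7a, a receptor for fungal glucans that marks such cells, was at 15.3, 20.7 and 18.1 CPM in injured and 9.85, 12.8 and 9.52 CPM in HuMSC20 libraries (-0.75 ± 0.18, edgeR adjusted p = 0.25). Igf1, a growth factor for oligodendrocytes and their precursors, was at 70.3, 102 and 101 against 51.6, 65.1 and 58.9 CPM (-0.64 ± 0.17, edgeR adjusted p = 0.252). Both were lower in all HuMSC20 libraries. Spp1, osteopontin, varied within the groups, at 222, 368 and 715 CPM in injured and 228, 202 and 170 CPM in HuMSC20 libraries, and the groups overlapped (-1.12 ± 0.70, edgeR adjusted p = 0.615). Lgals3, galectin 3, was at 42.9, 41.3 and 46.0 CPM in injured and 40.2, 28.2 and 23.9 CPM in HuMSC20 libraries, with no overlap, and did not pass (-0.49 ± 0.23, edgeR adjusted p = 0.482).

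Repair and anti-inflammatory markers had 6 of 19 with an unadjusted p under 0.05, all lower (5.21% of all genes were), and a median of -0.21. The mannose receptor gene Mrc1 was at 650, 715 and 564 CPM in injured and 414, 465 and 429 CPM in HuMSC20 libraries (-0.56 ± 0.15, edgeR adjusted p = 0.252), and the haemoglobin scavenger receptor gene Cd163 at 163, 120 and 143 against 103, 85.8 and 74.4 CPM (-0.69 ± 0.19). Mrc1 passed in 1 of 13 other settings. Mrc1 and Cd163 also mark macrophages at the borders of the brain. Of 11 markers of those cells all were below 0, 4 with an unadjusted p under 0.05, and their summed level was 2866 to 3280 CPM in injured and 2416 to 2551 CPM in HuMSC20 libraries; their part in the Mrc1 and Cd163 values was not tested. Neutrophil markers had 4 of 13 with an unadjusted p under 0.05 on the lower side (median -0.79), with S100a9 at 129, 82.9 and 59.5 CPM in injured and 37.3, 51.5 and 15.7 CPM in HuMSC20 libraries.

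Homeostatic and proliferation genes had medians near 0, while inflammatory genes lay more on the lower side. Of 25 homeostatic microglia genes, 2 had an unadjusted p under 0.05, both higher (4.79% of all genes were), and the median was -0.05. P2ry12, the ADP receptor of resting microglia, was at 1589, 2248 and 1435 CPM in injured and 1458, 1891 and 1603 CPM in HuMSC20 libraries, overlapping (-0.09 ± 0.15, and 0.13 and 0.0088 without injured replicate 2 and HuMSC20 replicate 1). Tmem119 (0.33 ± 0.28) and Cx3cr1, the fractalkine receptor (-0.36 ± 0.19), did not pass either. Il1b, which encodes IL-1β itself, was at 304, 149 and 180 CPM in injured and 193, 271 and 287 CPM in HuMSC20 libraries (0.25 ± 0.31, edgeR adjusted p = 0.818). The HuMSC20 libraries lay inside the injured range for Il1b. Of 27 inflammatory cytokine and NF-κB target genes, 18 were below 0, with a median of -0.15. At an unadjusted p under 0.05, 1 of them was higher and 2 were lower (4.79% and 5.21% of all genes).

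Neither edgeR nor DESeq2 passed Ptgs2, Il1rn, Socs3 or Mki67. Ptgs2, the inducible cyclooxygenase, was at -0.36 ± 0.24, Il1rn, the IL-1 receptor antagonist, at -0.21 ± 0.23, and Socs3, an inhibitor of cytokine signalling, at -0.09 ± 0.25 on the log2 scale, and Socs3 was above 0 when injured replicate 1 (0.29) or HuMSC20 replicate 1 (0.12) was left out. Of 23 IL-1 pathway genes, 18 were below 0 (median -0.11). At an unadjusted p under 0.05, 1 was higher and 2 were lower (4.79% and 5.21% of all genes). Interferon response genes had 0 of 30 (median 0.03), and cell cycle genes 1 of 41 (median 0.02), with the proliferation marker Mki67 at -0.25 ± 0.14. Cholesterol synthesis genes had 22 of 25 above 0 (median 0.21). An unadjusted p under 0.05 was found for 6, all higher (4.79% of all genes were). They were led by Idi1 at 24.6, 23.9 and 24.4 CPM in injured and 29.1, 36.1 and 37.4 CPM in HuMSC20 libraries (0.49 ± 0.13, edgeR adjusted p = 0.252), with control libraries at 26.6 to 32.7 CPM.

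HuMSC20 was then compared with control, to see what remained of the IL-1β state under the low dose. Of 13868 genes, 14 passed (0.101%), 7 higher and 7 lower, and 1558 had an unadjusted p under 0.05. In injured against control libraries of the same run 383 genes passed (2.76%), 222 higher and 161 lower, and at an unadjusted p under 0.05 10.4% of genes were higher and 9.61% lower. Both comparisons use the same control libraries. The 2 counts do not test what the dose changed, and against injured directly 1 gene passed. Over 13 other settings the counts against control were 0 to 175 for HuMSC20 and 68 to 830 for injured libraries.

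Genes of myelin led the lower side, and 5 of 16 oligodendrocyte markers passed (Mog, Mobp, Mag and Ugt8 among them; 0.0505% of all genes tested were called lower). Mog, an outer surface protein of myelin, was at 8.87, 8.37 and 9.80 CPM in control, 2.16, 2.49 and 2.2 CPM in injured and 2.16, 2.72 and 2.54 CPM in HuMSC20 libraries. It fell by 1.87 ± 0.26 against control (n = 3 against 3, edgeR adjusted p = 0.0133), and HuMSC20 and injured libraries overlapped. Mobp fell by 1.60 ± 0.23, Mag, an adhesion protein of myelin, by 1.36 ± 0.21, and Ugt8, which makes the myelin lipid galactosylceramide, by 1.52 ± 0.25 (edgeR adjusted p = 0.0133, 0.0147 and 0.0219).

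The list of 16 had 13 members with an unadjusted p under 0.05, all lower (5.76% of all genes were), and a median of -1.21 against 0.0012 over all genes. Their summed level was 662 to 802 CPM with HuMSC20, 588 to 739 CPM in injured and 1143 to 1278 CPM in control libraries. These are genes of oligodendrocytes in a fraction enriched for CD11b/c, and whether the fraction held fewer such cells, or less RNA of theirs taken up, was not tested. The other 2 genes that fell were Ephb1, an ephrin receptor (by 1.22 ± 0.18, edgeR adjusted p = 0.0133), and Dpp6, an auxiliary subunit of neuronal potassium channels (by 1.68 ± 0.29, edgeR adjusted p = 0.0391).

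Of the 7 genes that rose, 4 encode regulators or signals. Fosl2, an AP-1 transcription factor, was at 5.97, 5.63 and 4.98 CPM in control, 17.5, 10.3 and 13 CPM in injured and 14.8, 13.2 and 14.0 CPM in HuMSC20 libraries, and rose by 1.34 ± 0.19 (edgeR adjusted p = 0.0133). Egr3, a zinc finger transcription factor, was at 143, 130 and 90.9 CPM in control, 221, 205 and 174 CPM in injured and 224, 309 and 364 CPM in HuMSC20 libraries, and rose by 1.30 ± 0.20 (edgeR adjusted p = 0.0147). For Egr3 every HuMSC20 library was above every injured one. Crem, a modulator of cyclic AMP responsive transcription, rose by 0.92 ± 0.15 and Csf1 by 0.69 ± 0.11 (edgeR adjusted p = 0.0216 and 0.0219).

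Pygl, liver glycogen phosphorylase, rose by 0.66 ± 0.11 and Gas7 by 0.67 ± 0.12 (edgeR adjusted p = 0.0219 and 0.0450). Adamts13, which encodes the protease that cleaves von Willebrand factor, was also called, on 655, 84 and 23 counts in the HuMSC20 libraries and at most 2 counts in each of the other 12 libraries of the run. Its level thus varied widely within the HuMSC20 group, and counts this high also occurred in control libraries elsewhere in the series. Of 34 immediate early and dissociation response genes, 2 passed, both higher (0.0505% of all genes were called higher). An unadjusted p under 0.05 on the higher side was found for 23 (5.47% of all genes did), and the median was 0.84. Of the 14 genes, 2 were called again when HuMSC20 replicate 1 was left out, 0 when HuMSC20 replicate 2 was, and 2 when HuMSC20 replicate 3 was. Leaving out control replicate 1 kept 0 of them, and leaving out control replicate 2 or 3 kept 4. The count was 34 without HuMSC125 replicate 2, the library with neuron markers.

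Next the low dose was set against the higher doses of the same run, given on the same day and by the same route. HuMSC20 differed from HuMSC50 for 29 genes (0.209%), 27 higher and 2 lower, and 1190 (8.58%) had an unadjusted p under 0.05. It differed from HuMSC125 for 7 genes (0.0505%), all higher, and 1151 (8.3%) had an unadjusted p under 0.05. Both comparisons use the same HuMSC20 libraries. In them, rose and fell mean higher and lower with HuMSC20 than with the dose named.

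Csf1 had the smallest p in both. HuMSC20 libraries held 60.5, 60.6 and 62.2 CPM, HuMSC50 libraries 29.5, 28.1 and 26.8 CPM and HuMSC125 libraries 27.9, 34.3 and 24.2 CPM. All libraries of the higher doses were below the control libraries (36.5 to 39.0 CPM), and all HuMSC20 libraries were above them. Csf1 was 1.12 ± 0.11 higher on the log2 scale than with HuMSC50 (n = 3 against 3, edgeR adjusted p = 0.000763) and 1.08 ± 0.11 higher than with HuMSC125 (edgeR adjusted p = 0.0011). Against HuMSC50 Csf1 passed in all 13 other settings (highest adjusted p = 0.0149), and against HuMSC125 in 12 of 13 (adjusted p = 2.21e-14 to 0.0569, the latter when only the 6 libraries were fitted).

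Among rapid response genes, 7 of 34 rose against HuMSC50 (0.195% of all genes were called higher). These members of the immediate early and dissociation response list were Fosl2, Egr3, Gadd45b, Nr4a3, Atf3, Dusp2 and Fosb. In all, 32 had an unadjusted p under 0.05 (5.03% of all genes were higher at that level) and the median was 1.02. The count of members called was 0 without HuMSC20 replicate 2 or 3 or HuMSC50 replicate 2 or 3, and 21 with DESeq2. Fosl2 was at 6.80, 4.77 and 5.51 CPM with HuMSC50 and 5.05, 5.63 and 5.49 CPM with HuMSC125, below the 13.2 to 14.8 CPM of HuMSC20, and the log2 differences were 1.30 ± 0.19 and 1.37 ± 0.19 (edgeR adjusted p = 0.0167 and 0.0166). Atf3, a stress-induced transcription factor, was at 272, 365 and 304 CPM with HuMSC20, 141, 96.9 and 129 CPM with HuMSC50 and 64.6, 152 and 93.2 CPM with HuMSC125. The groups were separate, as were those of 14.7% of all genes against HuMSC50 and 11.8% against HuMSC125. The log2 differences of Atf3 were 1.36 ± 0.25 and 1.60 ± 0.25 (edgeR adjusted p = 0.0384 and 0.0398). Nr4a3, an orphan nuclear receptor, was 2.2 ± 0.36 higher than with HuMSC50 (edgeR adjusted p = 0.0207) and 1.31 ± 0.33 from HuMSC125 (edgeR adjusted p = 0.183). Against HuMSC125, 2 of the 34 rose (0.0505% of all genes were called higher). That count was 8 with HuMSC125 replicate 2 left out and 1 with HuMSC20 replicate 2 left out. It was 0 when HuMSC20 replicate 3 or HuMSC125 replicate 1 or 3 was left out. An unadjusted p under 0.05 was found for 32 (3.78% of all genes were higher at that level), with a median of 0.92.

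Some cytokine genes were higher than with HuMSC50 as well, while their list had a median of -0.15 against injured. Of 27 inflammatory cytokine and NF-κB target genes, 6 rose against HuMSC50 (Csf1, Ccl2, Tnfaip2, Ccl4, Il1b and Ccl7). In all, 16 had an unadjusted p under 0.05 on the higher side and 2 on the lower (5.03% and 3.55% of all genes). Their median against HuMSC50 was 0.95, and 0.195% of all genes were called higher. The count of members called was 1 without HuMSC20 replicate 2 or 3 or HuMSC50 replicate 2 or 3, 3 without HuMSC20 replicate 1 and 13 with DESeq2, and against HuMSC125 it was 1 (8 without HuMSC125 replicate 2). Il1b was at 97.6, 52.0 and 63.1 CPM with HuMSC50 and 43.6, 111 and 57.0 CPM with HuMSC125, against 193, 271 and 287 CPM with HuMSC20. The log2 difference from HuMSC50 was 1.82 ± 0.33 (edgeR adjusted p = 0.0363), and that from HuMSC125, also 1.82 ± 0.33, did not pass (edgeR adjusted p = 0.0590). Ccl2, a chemokine that attracts monocytes, was at 105, 138 and 142 CPM with HuMSC20 and 54.1, 47.9 and 53.3 CPM with HuMSC50, and rose by 1.31 ± 0.21 (edgeR adjusted p = 0.0179). Control libraries, at 90.7 to 133 CPM, were on the side of HuMSC20 for this gene. In unscaled counts, injured libraries held 1890, 2066 and 1949 of Ccl2 and HuMSC20 libraries 1465, 1621 and 1730. Injured libraries were deeper (12.97 to 15.9 M counts in all against 11.9 to 13.7 M). Scaled by library size, injured and HuMSC20 libraries overlapped for Ccl2. The chemokine gene Ccl4 rose by 1.76 ± 0.32, Tnfaip2 by 1.21 ± 0.21 and Ccl7 by 0.95 ± 0.18 against HuMSC50.

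Genes outside these lists included Pdk4, a kinase that restrains pyruvate oxidation, at 46.1, 51.6 and 74.1 CPM with HuMSC20, 19.5, 12.0 and 13.5 CPM with HuMSC50 and 15.3, 22.6 and 22.6 CPM with HuMSC125. It rose by 1.93 ± 0.25 and 1.5 ± 0.25 (edgeR adjusted p = 0.00908 and 0.0466). Control libraries lay between, at 28.9 to 36.1 CPM. In unscaled counts, injured libraries held 1464, 1050 and 933 of Pdk4 and HuMSC20 libraries 641, 608 and 903. Injured libraries were deeper, and scaled by library size the injured and HuMSC20 libraries overlapped for Pdk4. Sdc4, a heparan sulphate proteoglycan, rose by 2.05 ± 0.39, Lif, a cytokine of the IL-6 family, by 1.78 ± 0.31, Gdf15, a stress-induced hormone, by 1.63 ± 0.28, Adm, the peptide adrenomedullin, by 1.51 ± 0.27 and Cdkn1a, the cell cycle inhibitor p21, by 1.34 ± 0.20 against HuMSC50. Against HuMSC125 the 7 genes that rose were Csf1, Fosl2, Adamts13, Atf3, Pdk4, Crem (0.87 ± 0.15) and Arrdc3, an arrestin domain protein (1.45 ± 0.24).

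The summed level of the immediate early list was 15774 to 21660 CPM with HuMSC20, 13636 to 19390 CPM in injured, 9916 to 11630.5 CPM with HuMSC50, 8587 to 12411 CPM with HuMSC125 and 8541 to 13421.5 CPM in control libraries. HuMSC20 and injured libraries overlapped, and both groups lay above the other 3. The list is made of genes that respond to dissociation as well as to stimuli in the animal, and no label gives the time from tissue to bead fraction, so the part of dissociation in the difference between doses was not tested. Mitochondrially encoded RNA, which also varied, had a summed level of 39305 to 41185 CPM with HuMSC20, 27360 to 79800 CPM with HuMSC50 and 51929 to 71924 CPM with HuMSC125.

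Some myelin genes were lower than with HuMSC50. Mobp and Mag were the 2 genes that fell with HuMSC20 against HuMSC50 (0.0144% of genes). Mobp, a basic protein of compact myelin, was at 8.63, 8.82 and 10.6 CPM with HuMSC20, 14.8, 30.3 and 32.9 CPM with HuMSC50 and 16.7, 20.9 and 22.3 CPM with HuMSC125, and fell by 1.48 ± 0.23 (edgeR adjusted p = 0.0179). Control libraries, at 25.4 to 31.6 CPM, overlapped HuMSC50. Mag was at 15.7, 11.2 and 14.9 CPM with HuMSC20 and 24.2, 36.0 and 32.2 CPM with HuMSC50, and fell by 1.14 ± 0.21 (edgeR adjusted p = 0.0363).

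Against HuMSC125 neither passed, with Mobp at -1.10 ± 0.23 (edgeR adjusted p = 0.0967) and Mag at -0.91 ± 0.21 (edgeR adjusted p = 0.131). Of 16 oligodendrocyte markers, 11 had an unadjusted p under 0.05 on the lower side against HuMSC50 (3.55% of all genes did) and 12 against HuMSC125 (4.52%), with medians of -0.997 and -0.858. Their summed level was 898 to 1255 CPM with HuMSC50 and 947 to 1244 CPM with HuMSC125, above the 662 to 802 CPM of HuMSC20 in every library. Of 13 mural markers, 1 had an unadjusted p under 0.05 against each higher dose.

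**Figure D3:**
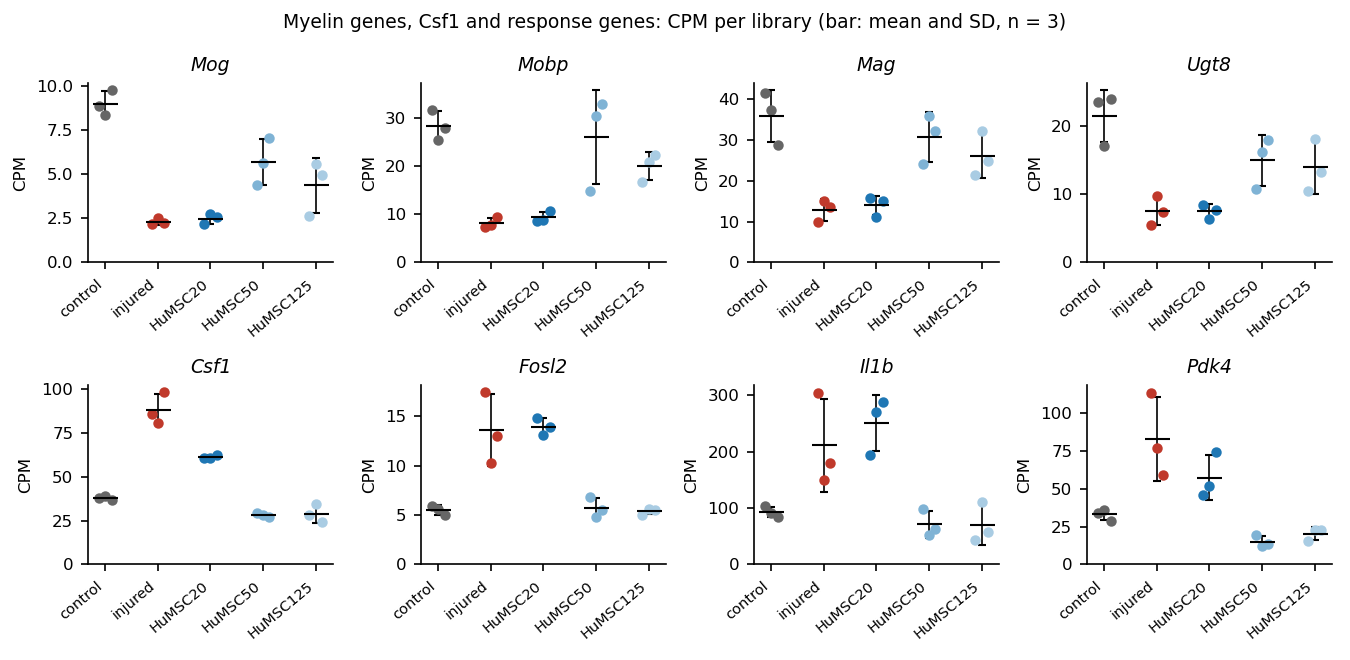
CPM of 4 myelin genes (top row) and of Csf1, Fosl2, Il1b and Pdk4 (bottom row) on the y axis, by group on the x axis, each point 1 library and the bar the mean with its SD (n = 3). For Mog the HuMSC20 libraries (2.16 to 2.72 CPM) lie with the injured ones (2.16 to 2.49), and for Csf1 they lie between injured (80.5 to 98.2 CPM) and control (36.5 to 39.0).

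The comparisons of doses leaned on single libraries. Of the 29 genes called against HuMSC50, 12 were called again when HuMSC20 replicate 1 was left out and 3 when either HuMSC20 replicate 2 or HuMSC20 replicate 3 was. Leaving out HuMSC50 replicate 1 kept 16 of them, HuMSC50 replicate 2 kept 1 and HuMSC50 replicate 3 kept 2. Of the 7 called against HuMSC125, all were called again when HuMSC20 replicate 1 was left out, 3 when HuMSC20 replicate 2 was and 2 when HuMSC20 replicate 3 was. Leaving out HuMSC125 replicate 1 or 3 kept 1. Without HuMSC125 replicate 2, the library with neuron markers, all 7 were among 51 genes called against HuMSC125 and all 29 among 54 called against HuMSC50. Csf1 is the gene that was still called against HuMSC50 when HuMSC50 replicate 2 was left out.

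**Figure D4:**
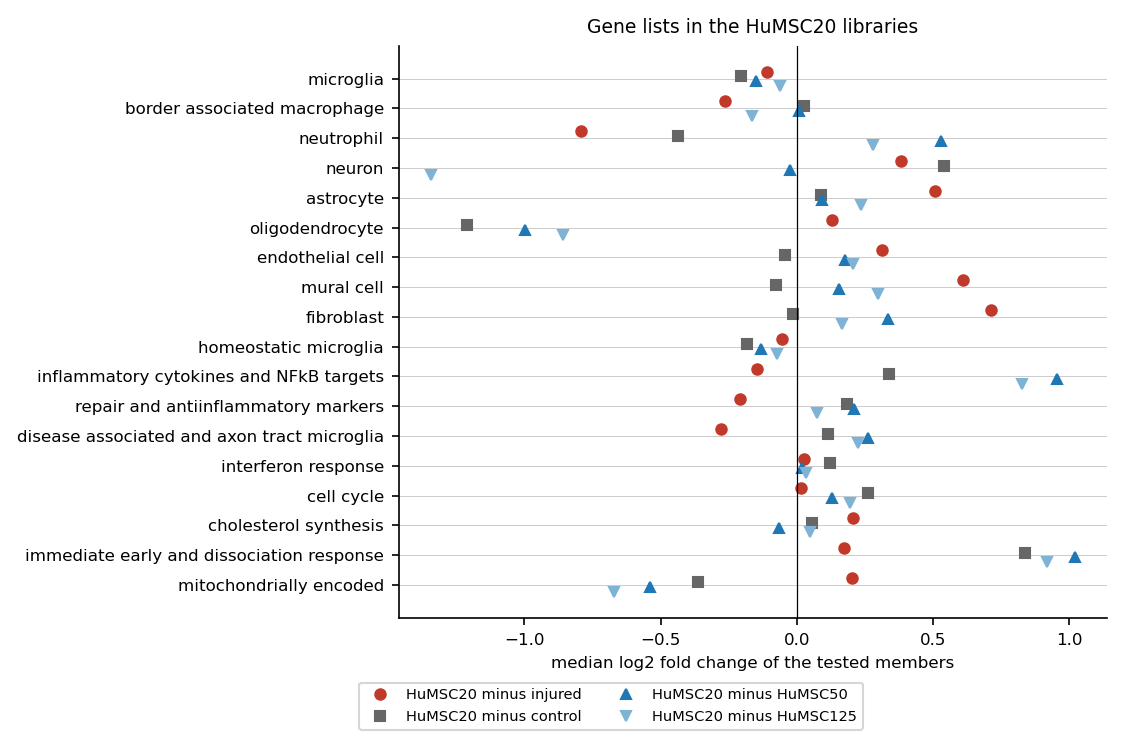
Median log2 fold change of the tested members of 18 gene lists on the x axis, with lists on the y axis and 1 symbol per comparison. Against injured (circles) mural and fibroblast markers have the highest medians (0.61 and 0.71), while against both higher doses (triangles) immediate early and cytokine genes are highest and oligodendrocyte markers are at -0.997 and -0.858. The neuron median against HuMSC125 (-1.34) includes HuMSC125 replicate 2.

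The promoters of 2 genes that were higher than with both other doses are shown, because Crem and Fosl2 belong to the cyclic AMP and AP-1 families whose binding motifs were searched. Windows run from 250 bases before to 50 after a gene's start (RefSeq, GRCr8) and are written 5′ to 3′ on the gene's strand. Capitals mark the cyclic AMP response element TGACGTCA. The Crem window is at chr17:58984547-58984846 (plus strand) and the Fosl2 window at chr6:30039220-30039519 (minus strand). The Crem window is 1 of 3 windows of the gene and was picked because it holds this element.
Crem: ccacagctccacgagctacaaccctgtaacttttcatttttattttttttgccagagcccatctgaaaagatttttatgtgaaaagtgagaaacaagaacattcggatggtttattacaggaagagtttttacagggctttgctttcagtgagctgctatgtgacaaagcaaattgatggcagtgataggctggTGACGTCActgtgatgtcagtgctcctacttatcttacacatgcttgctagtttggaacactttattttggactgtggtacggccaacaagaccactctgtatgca
Fosl2: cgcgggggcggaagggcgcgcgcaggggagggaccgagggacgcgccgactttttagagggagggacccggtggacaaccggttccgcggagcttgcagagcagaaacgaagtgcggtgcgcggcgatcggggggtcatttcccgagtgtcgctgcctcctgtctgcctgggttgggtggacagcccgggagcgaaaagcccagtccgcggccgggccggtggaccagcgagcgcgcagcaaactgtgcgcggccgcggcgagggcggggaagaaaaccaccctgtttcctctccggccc
Of the 27 genes higher than with HuMSC50, 18 had a window in the table, 27 windows in all, and shares are given here per gene with at least 1 matching window. The element TGACGTCA, which reads the same on both strands, was found for Crem alone, in 2 of its 3 windows, and for 2.0% of the 27457 genes in the table. The AP-1 motif TGACTCA, searched on both strands, was found for Olr1 alone, and for 5.04% of all genes. The half-site TGACG, searched on both strands and contained in the full element, was found for 8 of the 18 genes (Ccl7, Cdkn1a, Cebpb, Crem, Dusp2, Gadd45b, Olr1 and Tnfaip2), and for 23.0% of all genes. The Fosl2 window held none of the 3, and neither did the window of Pdk4, which is not shown.

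Last, the effect of the low dose was compared between routes at P12, as HuMSC20 minus injured by the nose minus HuMSC20 minus injured by the vein, with each part taken within its own run. In a fit of 30 libraries, 8 of 14362 genes passed for this difference (0.0557%), all higher by the nose, and 1164 (8.1%) had an unadjusted p under 0.05. Within the routes, edgeR passed 2 genes by the nose and 0 by the vein, where 663 had an unadjusted p under 0.05 and no other tool was run. Route and run cannot be told apart beyond effects of the run that add equally to both groups.

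Among the 8, Mlc1, S100b, Ndrg2 and Sparcl1 are known from astrocytes. Mlc1, a membrane protein of astrocyte endfeet, was at 64.9, 34.9 and 42.6 CPM in injured and 57.6, 69.6 and 74.0 CPM in HuMSC20 libraries by the nose, and at 24.2, 30.3 and 27.1 against 14.9, 16.3 and 15.8 CPM by the vein. The difference between routes was 1.31 ± 0.22 (edgeR adjusted p = 0.0272). By the vein the groups were separate, with HuMSC20 low, and by the nose they overlapped, with HuMSC20 mostly high. S100b, a calcium-binding protein of astrocytes, was at 45.2, 24.8 and 31.7 against 56.0, 60.2 and 66.1 CPM by the nose, and at 25.3, 30.8 and 26.9 against 17.7, 20.3 and 18.7 CPM by the vein (difference 1.41 ± 0.24, edgeR adjusted p = 0.0272). Here both pairs of groups were separate, in opposite directions. By the nose 15.0% of all genes had separate groups, and the share by the vein was not counted.

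Ndrg2 (1.17 ± 0.21), Sparcl1, a secreted matrix protein of astrocytes (1.29 ± 0.25), Entpd2, an enzyme that degrades extracellular ATP (1.10 ± 0.21), Mras, a small GTPase (0.77 ± 0.15), Fam84a (2.23 ± 0.43) and Scg3, a secretory granule protein (1.16 ± 0.22), made up the rest. Marker lists of the vessel wall had the same sign. Of 13 mural markers, 11 had an unadjusted p under 0.05 for the difference, all higher by the nose (5.29% of all genes were), with a median of 0.63 by the nose, -0.31 by the vein and 0.98 for the difference. Fibroblast markers had 10 of 11 (0.73, -0.35 and 1.08) and astrocyte markers 8 of 14 (0.53, -0.41 and 0.82). The summed mural level was 408 to 615 CPM in injured and 326 to 503 CPM in HuMSC20 libraries by the vein. Whether the share of such cells in the bead fraction accounts for the 8 genes was not tested.

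**Figure D5:**
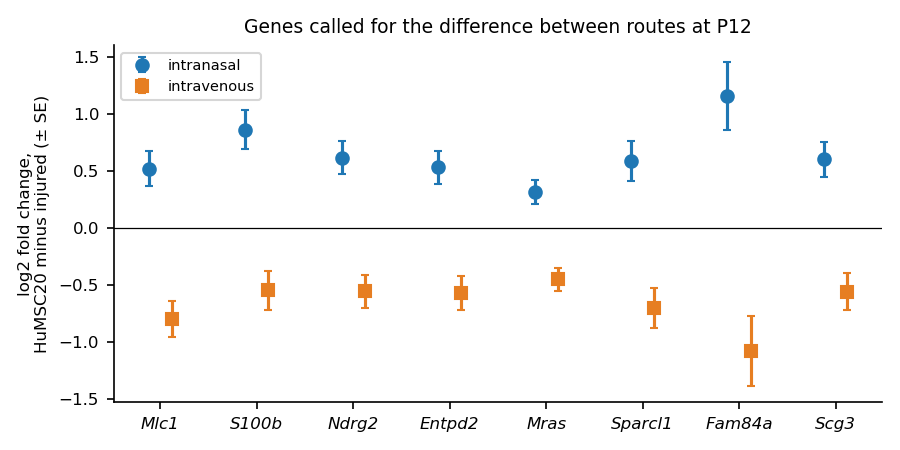
Log2 fold change of HuMSC20 minus injured with its SE on the y axis for the 8 genes called for the difference between routes (x axis), by the nose (circles) and by the vein (squares). All 8 are above 0 by the nose and below 0 by the vein, for example Mlc1 at 0.52 and -0.80.

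None of the 8 was called under every setting. The count was 0 without injured replicate 3 or HuMSC20 replicate 3 by the nose, and 0 without injured replicate 2, HuMSC20 replicate 1 or HuMSC20 replicate 3 by the vein. Leaving out injured replicate 2 by the nose gave 3 genes and injured replicate 1 by the nose gave 34. The count was 5 when HuMSC20 replicate 2 by the nose, or injured replicate 3 or HuMSC20 replicate 2 by the vein, was left out. Mlc1's adjusted p was 0.0640 to 0.110 when the calls were lost to single libraries, and 2.18e-05 to 0.149 over all 19 other settings.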

How the data were processed

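The authors deposited 1 table of raw counts per gene (32623 genes, 90 libraries); columns were matched to libraries by the library names in the labels. The submitters' processing notes name the tools DESeq2 1.8.1, HTSeq 0.5.3, STAR 2.7.2d and SAMtools; genome build and annotation are not given in the sources used here. From the deposited counts, edgeR 4.0.16 (R 4.3.3) was run with TMM scaling, filterByExpr (minimum count 10, minimum total 15) and the quasi-likelihood F test on 5 group means in the 15 libraries of run 412, or 10 group means in 30 libraries for the routes. Benjamini-Hochberg adjustment ran over all genes tested, with a threshold of 0.05. Fold changes are log2 with the SE of the coefficient; CPM use the TMM-scaled library size. DESeq2 1.42.0, other scalings and filters, a replicate block and each replicate left out were alternatives. No 2 libraries were duplicates (lowest chi-square per degree of freedom 11.1), and log2 CPM of replicates correlated across genes with r of 0.970 to 0.987.

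On data simulated for HuMSC20 minus injured over 13745 genes, 79 of 100 genes changed 2-fold and 96 of 100 changed 4-fold were recovered, with 8 false among 183 calls. Changed genes were drawn only from those above a minimum mean count. With many genes changed the adjusted threshold is easier to pass, so these shares do not carry over to the real comparison. There Ngfr, Tlr5 and Efhd1 differed by more than 2-fold (log2 difference 1.45, -1.08 and 1.04) and did not pass. Of 746 genes in 38 lists, 719 matched the table. The compared groups and the lists were chosen with earlier results of these data known. Genes were named by rule: any called gene against injured and the 10 smallest p in each direction among genes that had separate groups, a full symbol and log2 CPM averaging 1 or more; up to 4 members of each list with the smallest p; 13 genes fixed for display (P2ry12, Tmem119, Cx3cr1, Il1b, Ptgs2, Mrc1, Igf1, Lgals3, Il1rn, Socs3, Spp1, Csf1, Mki67); and the 5 largest called changes each way in the other comparisons. Other called genes, and Gfap, were chosen after their values were seen. Promoter windows are from RefSeq; those of Atf3, Ccl2, Ccl4, Csf1, Egr3, Lif, Nr4a3, Stom and Tspan10 were not in the table used. A few genes that the rule names are not reported here.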

Additional observations from a re-analysis of the deposited data

Results flagged for a closer look

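The 8 genes whose response to HuMSC20 differed between routes are listed because the difference itself was tested as an interaction in edgeR. The log2 differences, intranasal minus intravenous, were 1.31 for Mlc1, 1.41 for S100b, 1.17 for Ndrg2, 1.10 for Entpd2, 0.77 for Mras, 1.29 for Sparcl1, 2.23 for Fam84a and 1.16 for Scg3. The edgeR adjusted p was 0.0272 for Mlc1, S100b and Ndrg2 and 0.0417 for the others, with n = 3 in each of 4 groups. Route and run cannot be told apart. Without the HuMSC20 replicate 3 library by either route, 0 genes were called.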

How the results depend on the processing

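Counts of called genes moved with the settings. No gene named here as called changed sign, while P2ry12 and Socs3, which did not pass against injured, did when 1 library was left out (-0.22 to 0.13 and -0.32 to 0.29). HuMSC20 minus injured gave 1 gene, 0 with total count scaling, 4 without the filter on low counts, 67 with DESeq2, 0 with the compared groups only and 0 to 3 with 1 replicate left out. HuMSC20 minus control gave 14, and 61 without the filter, 34 without HuMSC125 replicate 2, 175 with DESeq2, 48 with the groups only and 0 to 5 with 1 replicate left out. Injured minus control gave 383, 830 with DESeq2, 89 with the groups only and 68 to 452 with 1 replicate left out. HuMSC20 minus HuMSC50 gave 29, and 82, 54, 120 and 94 under the same 4 settings as control, with 1 to 23 when 1 replicate was left out. HuMSC20 minus HuMSC125 gave 7, and 4 with total count scaling, 76 without the filter, 51 without HuMSC125 replicate 2, 106 with DESeq2, 1 with the groups only and 1 to 51 with 1 replicate left out. The route difference gave 8, and 27 without the filter, 57 with DESeq2, 0 with the groups only and 0 to 34 with 1 replicate left out.

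Deviations of same-numbered HuMSC20 and injured libraries from their group means had r of -0.22 to 0.14, 1 of 3 above 0.1. Over all pairs of groups, 9 of 30 were above 0.1 (r of -0.22 to 0.28). So few libraries cannot show whether those with the same number share a litter or handling. With the replicate block the counts were 1 (none shared with the unblocked fit), 22, 351, 22, 3 and 5 in the order above. With 3 libraries a group at 11.4 to 15.9 M counts, a gene that missed the threshold is not shown to be unaltered.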

Other observations

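Adamts13, called with HuMSC20 against 3 groups of its run, was uneven over the whole series. It had over 3 counts in 21 of 90 libraries and 0 counts in 44, with the highest value, 1401 counts, in a P22 intranasal library. The libraries above 3 counts were 3 of 15 in the intranasal and 5 of 15 in the intravenous P12 experiment, 2 of 15 and 11 of 15 at P22, and 0 of 15 in each P7 experiment.

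Mast cell markers, which no comparison with injured called, had a summed level of 521, 218 and 113 CPM in the HuMSC20 libraries against 275 to 343 CPM in injured libraries.

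T cell genes were also uneven. Of 8 T and NK cell markers tested against injured, 2 were higher and 2 lower at an unadjusted p under 0.05. The shares of all genes were 4.79% and 5.21%, and edgeR passed none of the 8. On the higher side were Cd5 and Zap70. Injured libraries held 121, 115 and 138 counts of Cd5 and HuMSC20 libraries 146, 143 and 181. For Zap70 the counts were 111, 41 and 118 against 192, 79 and 139. The lower 2 were Cd8a and Cd4. Cd8a was at 10.4, 20.4 and 27.4 CPM in injured, 9.85, 10.9 and 9.60 CPM in HuMSC20 and 2.39 to 5.31 CPM in control libraries, and Cd4, which rat microglia and macrophages also express, at 550, 521 and 524 CPM in injured, 423, 424 and 369 CPM in HuMSC20 and 319 to 403 CPM in control libraries. Neither passed against injured (log2 difference -0.94 ± 0.39 and -0.39 ± 0.09, edgeR adjusted p = 0.452 and 0.252).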
